A study of Saccharomyces cerevisiae with 4 samples.

Results

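Divergent intergenic regions are the stretches between a pair of neighbouring genes that are transcribed away from each other, so that each holds both promoters. The regions described here, called divergent gaps, lay between adjacent, non-overlapping protein-coding genes of the nuclear genome of budding yeast. The left gene had C and the right gene W in its systematic name. Each gap was more than 30 kb from both ends of its chromosome and held no annotated noncoding gene or pseudogene. By this rule, which uses no measured value, 1329 of 5868 gaps between nuclear protein-coding genes were kept, of 1527 divergent gaps in all. They covered 763 kb on 16 chromosomes and were 11 to 7420 bp long, with a median of 474 bp (interquartile range 277 to 719 bp).

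The series used ChIP-seq, in which a protein is immunoprecipitated (IP) from crosslinked chromatin and the DNA that comes with it is sequenced. An IP was made from a strain with HA-tagged Hst1 (LRY0558), from a strain with HA-tagged Sir2 (LRY1926) and, as a mock IP with the same anti-HA antibody, from the parental strain without a tag (LRY1009). All 3 strains were grown at 30 °C in rich medium with 2% glucose to early log phase and crosslinked with 10 mM dimethyl adipimidate and then 1% formaldehyde. A genomic input of the parental strain was not analysed here. Each IP had 1 list of called peaks, with 692 peaks for Hst1, 159 for Sir2 and 3 for the mock IP. The values used were the position of each summit and the authors' fold enrichment there, a ratio to the peak caller's local background. Folds were compared only within a list. Depth is unknown, as a peak list carries no counts of reads. Because a single list stands for each IP, no replicate error could be had and no test between conditions was made. The 95% intervals (CI, exact Clopper-Pearson for shares, exact Poisson for rates and order statistics for medians) cover counting error only. All coordinates are those of sacCer3.

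Hst1 and Sir2 are related deacetylases that use NAD+ to remove acetyl groups from histone tails. Hst1 acts with the DNA-binding protein Sum1 and the linker protein Rfm1, and this complex is known to repress genes of middle sporulation and of NAD+ synthesis in dividing cells. Sir2 works with Sir3 and Sir4 to keep the silent mating loci and the telomeres repressed. In a divergent gap a bound factor faces the starts of both flanking genes, and a peak by itself does not say which of them it concerns.

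Hst1 summits lay in 165 of 1329 divergent gaps (12.4%, CI 10.7 to 14.3). Over the 5161 interior gaps of all orientations the share was 6.94%. Tandem gaps, between genes read in the same direction, were hit in 181 of 2471 cases (7.33%, CI 6.33 to 8.42). Convergent gaps, which lie between the ends of their genes and hold no promoter of either, were hit in 12 of 1361 cases (0.882%, CI 0.456 to 1.54). Divergent gaps held 168 Hst1 summits, or 24.3% of the Hst1 list, since 3 gaps held 2 each. Sir2 summits lay in 6 divergent gaps (0.451%, CI 0.166 to 0.980), against 0.213% of all interior gaps, and in 5 tandem and 0 convergent gaps. The mock IP had a summit in 0 of 1329 divergent gaps (CI 0 to 0.277%), against 0% of all interior gaps. Peaks were counted by their summit: with any overlap counted, 186 divergent gaps were touched by an Hst1 peak, 7 by a Sir2 peak and 2 by a mock IP peak. The shares over all interior gaps by that rule were 8.6%, 0.349% and 0.0581%. The divergent gaps touched by mock IP peaks were SOK1-TRP1 and SIR3-ECM7, and neither was touched in the other IPs.

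Long divergent gaps were hit far more often than short ones. The 165 gaps with an Hst1 summit had a median length of 902 bp (CI 816 to 980), and the 1164 without one had a median of 419.5 bp (CI 385 to 449). Of gaps up to 200 bp, 1 of 105 was hit. The share was 5.67% above 400 and up to 500 bp (8 of 141), 12.8% up to 700 bp (34 of 265) and 23.2% up to 1000 bp (48 of 207). It was 42.9% above 1000 and up to 1500 bp (39 of 91) and 49.1% beyond 1500 bp (27 of 55). A longer gap offers more positions for a summit, but the number of summits per kb also differed between the classes. It was 0.0656 up to 200 bp and 0.0397 in the next class, up to 300 bp. It was 0.214 in the class up to 700 bp, 0.381 in the class up to 1500 bp and 0.243 beyond that.

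**Figure D1:**
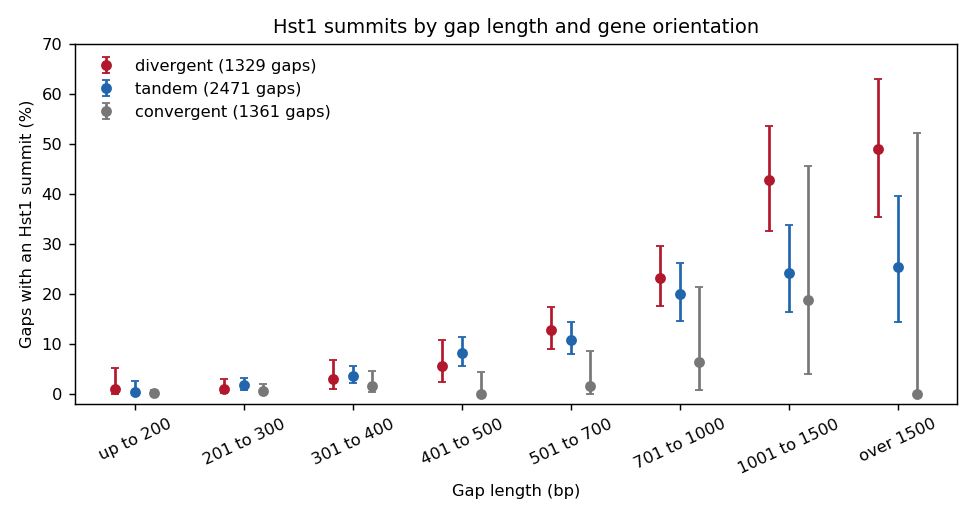
Share of gaps with an Hst1 summit (percent, with exact 95% intervals) in 8 classes of gap length (bp), for divergent, tandem and convergent gaps of the chromosome interior. Divergent and tandem gaps lie close together up to 1000 bp, and above that the divergent points stand at 42.9% and 49.1% and the tandem points at 24.3% and 25.5%.

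Since divergent gaps were longer than tandem gaps (medians 474 and 378 bp) and convergent gaps (213 bp), the orientations were set side by side at equal length. Up to 500 bp, 17 of 711 divergent gaps were hit (2.39%, CI 1.40 to 3.80) and 63 of 1744 tandem gaps (3.61%, CI 2.79 to 4.60). Above 1000 bp, 66 of 146 divergent gaps were hit (45.2%, CI 37.0 to 53.6) and 38 of 154 tandem gaps (24.7%, CI 18.1 to 32.3). Had divergent gaps been hit at the tandem share of each length class, 129 of them would have held a summit in place of 165. Of these, 23.2 would have lain in gaps up to 500 bp, where 17 were observed, and 36.1 in gaps above 1000 bp, where 66 were. The intervals overlapped up to 500 bp and did not overlap above 1000 bp. Up to 700 bp, 51 divergent gaps were hit, where the tandem shares would give 52.0. With only the peaks of a −log10 q of at least 10, the shares above 1000 bp were 28.1% (CI 21.0 to 36.1) and 15.6% (CI 10.2 to 22.3), and the intervals overlapped. Per kb over all lengths, divergent gaps held 0.220 Hst1 summits (CI 0.188 to 0.256), tandem gaps 0.160 (CI 0.138 to 0.185) and convergent gaps 0.0334 (CI 0.0173 to 0.0584). These orientations were not compared by a test, because 1 list stands behind all of the counts.

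Hit gaps were spread over all 16 chromosomes. The share was lowest on VIII (2 of 58 gaps, 3.45%) and highest on V (12 of 60 gaps, 20%). By distance from the chromosome end it was 7.69% at 30 to 60 kb (8 of 104), 13.7% at 60 to 100 kb (21 of 153), 12.6% at 100 to 200 kb (44 of 350), 15.3% at 200 to 400 kb (75 of 490) and 7.33% beyond 400 kb (17 of 232). The median gap length in these 5 classes was 444 to 484 bp. Just inside the 30 kb limit, at 30 to 40 kb, 1 of 30 divergent gaps was hit, and just outside it, at 20 to 30 kb, 6 of 31 were. The gaps outside were also longer, with a median of 728 bp in place of 461.5 bp.

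The fold of Hst1 summits in divergent gaps spanned 1.45 to 9.46, the highest of the list, with a median of 2.24 (CI 2.11 to 2.38, interquartile range 1.91 to 3.27). The other 524 Hst1 peaks had a median of 2.21 (CI 2.13 to 2.29), and the 185 of them in tandem gaps had a median of 2.40 (CI 2.28 to 2.60). Divergent gaps held 15 of the 42 peaks with a fold of 6 or more (35.7%, CI 21.6 to 52.0), and tandem gaps held 8. Of the 245 peaks with a fold under 2 they held 54 (CI 17.0 to 27.8%), and tandem gaps held 50. In the classes in between, divergent gaps held fewer than tandem gaps, with 67 and 75 at a fold of 2 to 3, 15 and 31 at 3 to 4, and 17 and 21 at 4 to 6. The intervals of the divergent shares in the lowest and highest classes overlapped. The 12 convergent summits had folds up to 3.92, so that 0 of the 100 peaks with a fold of 4 or more lay in a convergent gap.

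**Figure D2:**
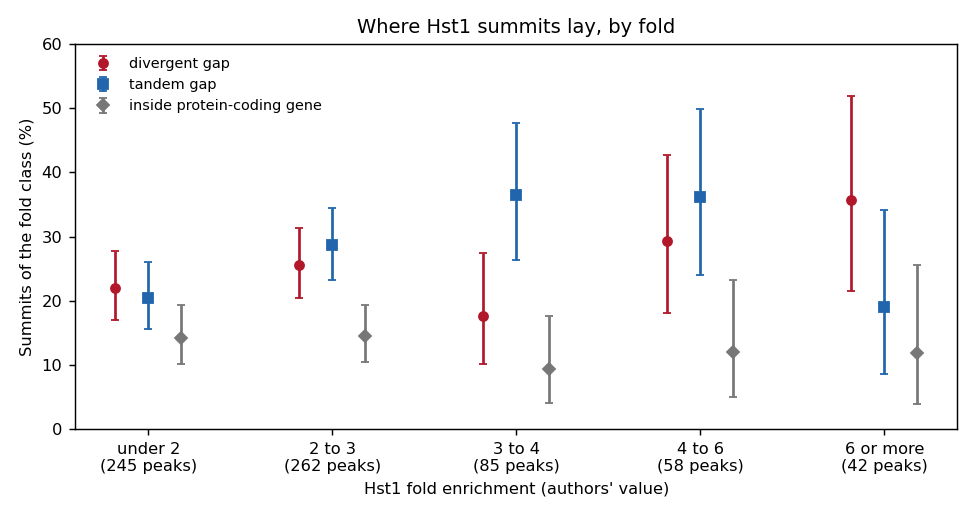
Share of Hst1 summits (percent of the peaks in each class, exact 95% intervals) that lay in divergent gaps, in tandem gaps and inside protein-coding genes, in 5 classes of the authors' fold. Divergent gaps hold 54 of 245 summits with a fold under 2 and 15 of 42 (35.7%) with a fold of 6 or more, with wide intervals in the strong classes.

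Strong and weak hits lay in gaps of different length. The median fold in hit gaps was 2.33 in the class up to 700 bp, 2.24 in that up to 1000 bp, 2.18 in that up to 1500 bp and 2.11 beyond. In the 4 hit gaps up to 300 bp it was higher: SPS4-YOR314W had a fold of 7.70, HXT14-PFS2 6.14, SPS18-SPS19 5.22 and TIM18-MUM3 2.63. The 32 summits with a fold of 4 or more lay in gaps with a median length of 694 bp, and the 136 weaker ones in gaps with a median of 964.5 bp. Of the 69 summits in gaps above 1000 bp, 63 had a fold under 4. Of the 3 longest hit gaps, NRG1-HEM13 (IV, 543370 to 546641, 3272 bp) had folds of 2.08 and 1.85 at its summits, YMR082C-ADH3 (2662 bp) had 1.58 and IRC22-MNN1 (2541 bp) had 2.26. NRG1 encodes a repressor of glucose-repressed genes, HEM13 an enzyme of heme synthesis, ADH3 the mitochondrial alcohol dehydrogenase and MNN1 a mannosyltransferase. The other gaps with a pair of Hst1 summits were CMC4-ICY1, with folds of 2.35 and 2.15, and FKH2-YNL067W-B, with 2.07 and 1.72, where FKH2 encodes a forkhead transcription factor of the cell cycle. Length did not ensure a hit, as the 3 longest gaps without an Hst1 summit show: YGR038C-B-YGR039W (7420 bp), YHR210C-FLO5 (3654 bp) and AAP1-YHK8 (3296 bp).

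Most Hst1 summits lay in the central part of the gap. Positions were measured to the first base of the coding sequence of each gene. Each gap was divided into 3 zones of equal length. Of 168 summits, 97 lay in the central zone (57.7%, CI 49.9 to 65.3), where positions spread evenly would put 33.3%. The left zone held 32 and the right zone 39, and 82 summits were nearer to the left start and 86 to the right one, so the distribution was close to symmetrical. The share in the central zone was 29.4% in gaps up to 500 bp (5 of 17, CI 10.3 to 56.0). It was 55.9% in the class up to 700 bp (19 of 34) and 53.6% above 1000 bp (37 of 69). It was highest in between, in gaps above 700 and up to 1000 bp (36 of 48). Of the 6 summits with a fold of 4 or more in gaps above 1000 bp, 0 lay in the central zone. In tandem gaps, divided in the same way, the central zone held 92 of 185 summits, the zone next to the start 35 and the zone next to the end of the other gene 58.

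**Figure D3:**
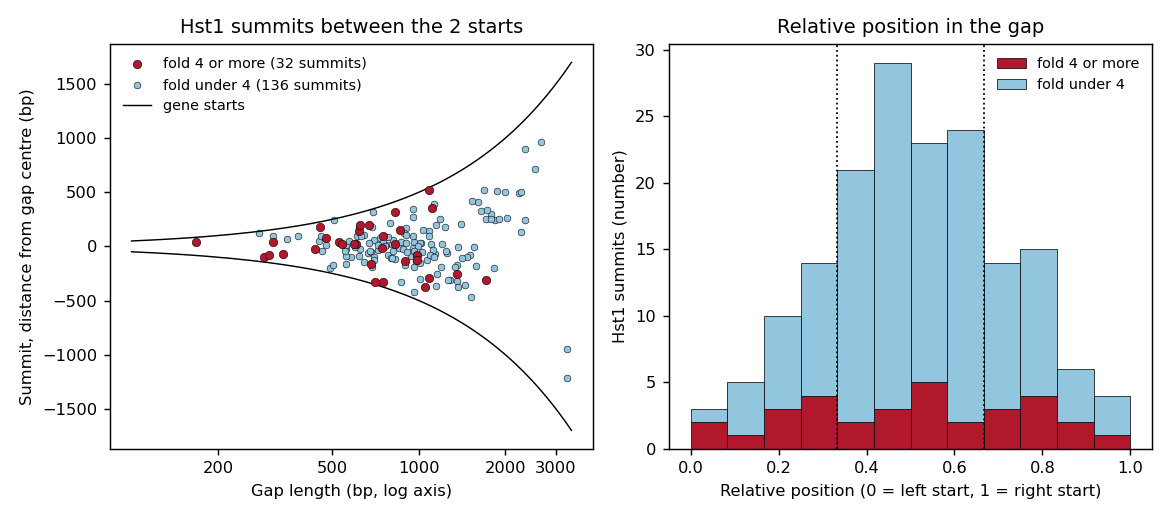
Left, the 168 Hst1 summits by gap length (bp, log axis) and distance from the gap centre (bp), with the starts of both genes as lines. Right, the number of summits by relative position from the left start (0) to the right start (1), with dotted lines at the bounds of the central zone, which holds 97 of 168 summits.

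In base pairs, the summit was a median of 321 bp from the nearer start (CI 292 to 364) and 569 bp from the farther one (CI 511 to 634). Only 16 of 168 summits lay within 100 bp of a start. Both starts were within 500 bp for 66 summits, 1 start was for 74 summits, and for 28 summits neither was. All 28 lay in gaps above 1000 bp, where the median distance to the nearer start was 473 bp (CI 409 to 523). In tandem gaps, which have 1 start each, the 185 summits were a median of 341 bp from it (CI 309 to 384) and 267 bp from the end of the other gene, and only 70 were nearer to the start than to that end. The interval of the distance to the start in tandem gaps overlapped that to the nearer start in divergent gaps. These are unlike measures, because a divergent summit was scored to the nearer of both starts, which shortens its distance.

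Over all gaps strong summits stood nearer to a start than weak ones, and gap length differed with them. With a fold of 4 or more the median distance to the nearer start was 186.5 bp (CI 112 to 274, 32 summits), and with a fold under 4 it was 350.5 bp (CI 317 to 383, 136 summits). The central zone held 12 of the 32 strong summits (37.5%, CI 21.1 to 56.3) and 85 of the 136 weak ones (62.5%, CI 53.8 to 70.6). The interval of the strong summits contains the 33.3% of evenly spread positions, and that of the weak ones lies above it. In gaps above 500 and up to 1000 bp the medians were 261.5 bp (CI 135 to 316, 18 strong summits) and 292 bp (CI 256 to 314, 64 weak summits), with intervals that overlapped. Above 1000 bp they were 228.5 bp (CI 21 to 546, 6 strong summits) and 476 bp (CI 426 to 531, 63 weak summits), and the intervals overlapped there too. The strong peaks had a median length of 923.5 bp and the weak ones 371 bp. Of the strong peaks 14 covered both starts, 13 covered 1 start and 5 stayed inside the gap. Of the weak peaks 1 covered both starts, 23 covered 1 start and 112 stayed inside.

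**Figure D4:**
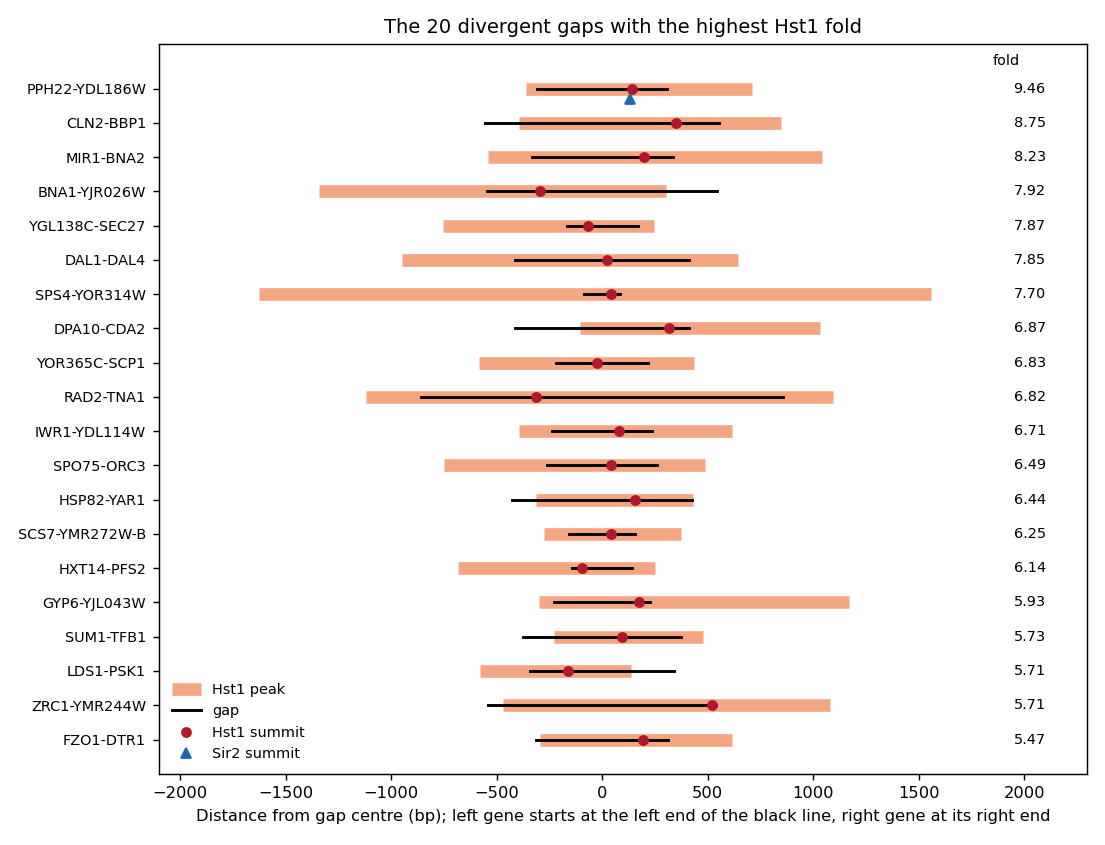
The 20 divergent gaps with the highest Hst1 fold, each aligned on its centre (x axis, bp), with the gap as a black line, the Hst1 peak as a band, the Hst1 summit as a dot, any Sir2 summit as a triangle, and the fold at the right. The peaks reach past one or both starts in every gap shown, and 1 gap, PPH22-YDL186W, also has a Sir2 summit.

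The strongest hit was the gap between PPH22, which encodes a catalytic subunit of protein phosphatase 2A, and YDL186W (IV, 124999 to 125615). Its Hst1 fold was 9.46 and its summit lay 168 bp from YDL186W and 450 bp from PPH22. The gap between CLN2, a G1 cyclin gene, and BBP1, a spindle pole body gene, followed with 8.75 (XVI, 66615 to 67724), with the summit 205 bp from BBP1 and 906 bp from CLN2. The allantoin genes DAL1 and DAL4, which encode allantoinase and the allantoin permease, shared a gap with a fold of 7.85 (IX, 407643 to 408467). There the summit was close to the centre, 437 bp from DAL1 and 389 bp from DAL4. YGL138C-SEC27 had 7.87 (VII, 249532 to 249868), where SEC27 encodes a coatomer subunit, and YOR365C-SCP1 had 6.83 (XV, 1025573 to 1026006), where SCP1 encodes an actin-binding protein. In both of these gaps the summit was nearer to the gene without a standard name, with SEC27 236 bp and SCP1 242 bp away. The remaining gaps of the top 10 belonged to sporulation and NAD+ genes.

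Genes of middle sporulation, many of which are switched on when spores form and are held off in dividing cells, flanked 20 divergent gaps. The list also holds genes that work in dividing cells. Its gaps CLN2-BBP1, NDD1-NUD1 and PNP1-CLB4 are also on the spindle pole body list or the cyclin and septin list. Hst1 summits lay in 13 of these 20 (65%, CI 40.8 to 84.6), beside 12.4% of all divergent gaps, and Sir2 summits lay in 0. The 20 gaps had a median length of 660 bp, longer than the 474 bp of all divergent gaps, and among gaps of at least 500 bp the shares were 76.9% (10 of 13) and 23.8% (148 of 621), with 18.6% over interior gaps of that length in all orientations. The median fold of the 13 was 5.47, beside 2.26 over all 165 hit gaps. Only 23 of the 60 listed genes flank a divergent gap, so the list is described here in part. Like the other lists, it was chosen with earlier results of these data known, and the interval does not cover that choice.

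The sporulation gaps that were hit held genes of several steps of spore formation. The CLN2-BBP1 gap, which is on the list through the spindle pole body gene BBP1, is given above. SPS4, a sporulation-specific gene, shared a gap of 168 bp with YOR314W (XV, 902875 to 903042, fold 7.70), the shortest of all hit gaps, under a peak of 3185 bp. CDA2, which encodes a chitin deacetylase of the spore wall, had a summit 97 bp from its start in DPA10-CDA2 (XII, 747112 to 747936, fold 6.87). The SPO75-ORC3 gap (XII, 140547 to 141072) had a fold of 6.49, with the summit 222 bp from ORC3, which encodes a subunit of the origin recognition complex, and 305 bp from SPO75. HXT14-PFS2 had a fold of 6.14, with the summit 49 bp from the hexose transporter homologue HXT14.

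A pair of duplicated loci were both hit. LDS1 and LDS2, which encode related proteins of lipid droplets in spores, each diverge from a PAS kinase gene, PSK1 and PSK2. LDS1-PSK1 (I, 119542 to 120224) had a fold of 5.71 with the summit 180 bp from LDS1 and 504 bp from PSK1. LDS2-PSK2 (XV, 242748 to 243496) had a fold of 5.31 with the summit 44 bp from LDS2 and 706 bp from PSK2. Both summits stood on the side of the sporulation gene, at different distances from it.

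In 3 hit gaps both flanking genes belonged to the sporulation list. DIT2 and DIT1, which encode the enzymes that make the dityrosine of the spore wall, shared a gap with a fold of 4.13 (IV, 1273704 to 1274601). SPS18 and SPS19 shared one of 300 bp with a fold of 5.22, and LOH1 and IRC18 shared one of 887 bp with a fold of 3.23. The other 10 hit gaps had 1 sporulation gene each, and in 8 of them the summit was nearer to that gene than to its partner. The median distance was 153.5 bp to the sporulation gene and 506 bp to the partner. The exceptions were SPS4, with the summit 127 bp away against 42 bp for YOR314W, and SPO75. The remaining hits were at FZO1-DTR1 (5.47, summit 119 bp from the dityrosine transporter gene DTR1), CRR1-FRE1 (2.37, 181 bp from the spore wall gene CRR1) and SOK2-SPO20 (1.91, 693 bp from SPO20, a gene of the prospore membrane).

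The 7 sporulation gaps without an Hst1 summit were XBP1-SGA1, ACA1-SPO73, PNP1-CLB4, SMA2-ORC1, NDD1-NUD1, SEC63-OSW1 and YPR053C-SMK1. At SMK1, a MAP kinase gene of spore wall assembly, the gap is 36 bp long and a peak with a fold of 8.57 had its summit 12 bp outside it, in YPR053C. At OSW1, an outer spore wall gene, a peak with a fold of 6.51 had its summit 62 bp inside OSW1. Early meiosis genes, which act in meiosis before spores form, flanked 17 gaps of a similar median length (615 bp). Of these, 2 were hit (11.8%, CI 1.46 to 36.4), close to the 12.4% of all divergent gaps. Among gaps of at least 500 bp the shares were 8.33% (1 of 12) and 23.8% (148 of 621). The hit gaps were NUP157-MAM1 (fold 2.41), next to a monopolin gene, and YJL107C-IME2 (fold 1.71), next to a meiotic kinase gene.

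Genes of NAD+ metabolism flanked 11 divergent gaps. Of these, 4 had an Hst1 summit (36.4%, CI 10.9 to 69.2), an interval that contains the 12.4% of all divergent gaps. Among gaps of at least 500 bp the shares were 66.7% (4 of 6) and 23.8% (148 of 621). The 4 hits were strong, with a median fold of 7.37. BNA2, which encodes the first enzyme of the kynurenine pathway to NAD+, had a fold of 8.23 in MIR1-BNA2 (X, 578191 to 578859), with the summit 135 bp from BNA2. BNA1, which encodes a later enzyme of that pathway, had 7.92 in BNA1-YJR026W (X, 471672 to 472759), with the summit 252 bp from BNA1. TNA1, the nicotinic acid permease gene, had 6.82 in RAD2-TNA1 (VII, 1010767 to 1012484). There the summit was 1173 bp from TNA1 and 546 bp from RAD2, a nucleotide excision repair gene, under a peak of 2214 bp that covered both starts. NPT1, the nicotinate phosphoribosyltransferase gene of the salvage pathway, had 4.24 in NPT1-RPB10 (XV, 737727 to 738319), with the summit 323 bp from NPT1 and 271 bp from the RNA polymerase subunit gene RPB10. The other 7 gaps, at PNC1, NMA2, UTR1, MEU1, PNP1, NRK1 and NRT1, held no Hst1 summit, and 5 of these were 88 to 275 bp long. The NRT1-YOR072W gap was reached by a peak with a fold of 6.51 whose summit lay 528 bp beyond it.

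Among silencing and general regulatory factors, 3 of 12 gaps were hit (25%, CI 5.49 to 57.2), an interval that contains the 12.4% of all divergent gaps. SUM1, whose product binds DNA in the Hst1 complex, had a fold of 5.73 in SUM1-TFB1 (IV, 1084317 to 1085064), with the summit 470 bp from SUM1 and 279 bp from TFB1, a gene of a general transcription factor. ORC3 is given above, and ABF1, which encodes a general regulatory factor, had a fold of 2.99 with the summit 34 bp from its start in RAD27-ABF1. HST2, HST3, HST4, SIR3, SAS2, SAS4, RIF2, ORC1 and ORC6 flank divergent gaps that held no Hst1 summit.

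Histone genes are a textbook case of divergent pairs, with H2A and H2B or H3 and H4 read from a shared gap. Of the 4 core pairs, HHT2-HHF2 was hit, with a fold of 2.00 (XIV, 576051 to 576726) and the summit 295 bp from HHT2 and 382 bp from HHF2. HTA2-HTB2, HHF1-HHT1 and HTB1-HTA1, with gaps of 699, 646 and 817 bp, were neither hit nor touched by an Hst1 or Sir2 peak. HTZ1-PLB3, at the gene of the H2A variant, had a fold of 1.71. The HHO1 gap held no summit, so 2 of the 6 histone gaps were hit (33.3%, CI 4.33 to 77.7). All 6 are at least 500 bp long, and of all divergent gaps of that length 23.8% were hit.

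Ribosomal protein genes flanked 68 divergent gaps and 10 were hit (14.7%, CI 7.28 to 25.4), close to the 12.4% of all divergent gaps. Among gaps of at least 500 bp the shares were 17.9% (10 of 56) and 23.8% (148 of 621). The folds ran from 1.52 at RPS4A-YJR146W to 3.39 at COM2-RPS26B and 3.32 at RPL18B-TOS6, followed by MOT1-RPS9A (2.52) and UTP6-RPS18A (2.30). Glycolysis and fermentation genes flanked 11 gaps with a median length of 1129 bp. Of these, 4 were hit (36.4%, CI 10.9 to 69.2), an interval that contains the 12.4% of all divergent gaps. Among gaps of at least 500 bp the shares were 50% (4 of 8) and 23.8% (148 of 621). All 4 hit gaps are longer than 1500 bp, and of all divergent gaps of that length 49.1% were hit (27 of 55). These hits were weak and in long gaps: PDC6-CTT1 (2.79, 1652 bp), PUP2-ENO1 (2.27, 1786 bp), CYC3-CDC19 (1.88, 2260 bp) and YMR082C-ADH3 (1.58, 2662 bp). They stood 367 to 1157 bp from the glycolysis or fermentation gene.

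**Figure D5:**
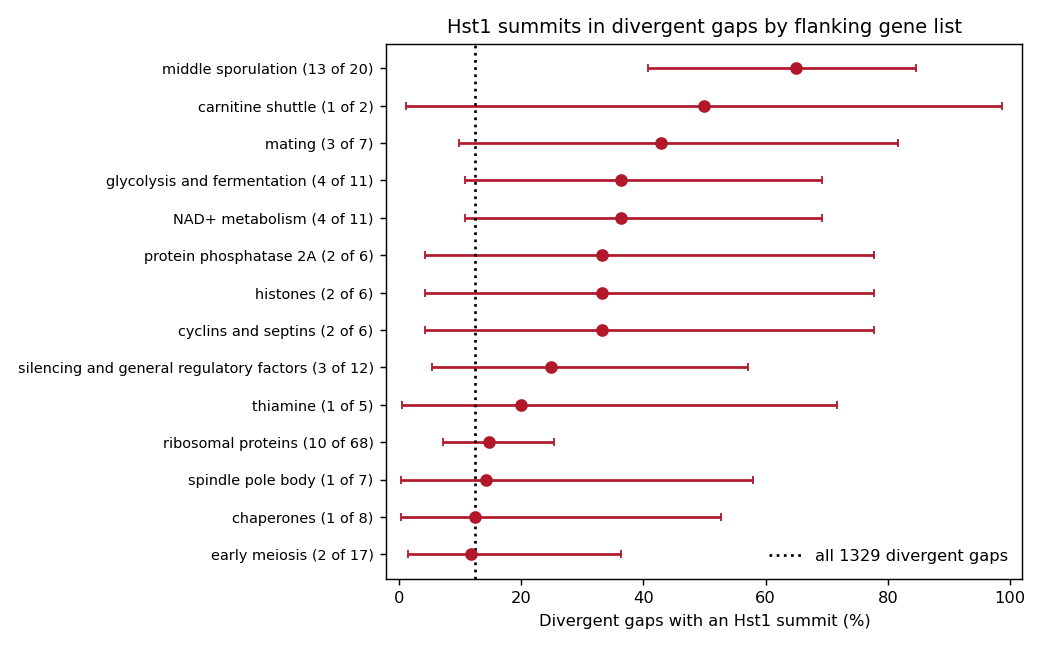
Share of divergent gaps with an Hst1 summit (percent, exact 95% intervals) among gaps flanked by a gene of each list, with the number hit and the number of gaps in brackets. The dotted line marks the 12.4% of all 1329 divergent gaps, and only the middle sporulation interval lies wholly above it. The lists were chosen with earlier results of these data known.

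The smaller lists gave few gaps each. For each list with gaps, the interval of its share contained the 12.4% of all divergent gaps. Mating genes had 3 of 7 gaps hit (CI 9.90 to 81.6%), PRM2-CST6 (3.34), MGM1-STE4 (2.49), next to the G protein beta subunit gene of pheromone signalling, and ERG24-PRM1 (2.07). All 7 mating gaps are at least 500 bp long, and of all divergent gaps of that length 23.8% were hit. The protein phosphatase 2A list had 2 of 6, PPH22-YDL186W and STP4-SIT4 (2.36). Cyclin and septin genes had 2 of 6, CLN2-BBP1 and CDC3-NKP2 (1.92), and spindle pole body genes had 1 of 7, CLN2-BBP1 again. Chaperone genes had 1 of 8, HSP82-YAR1 (XVI, 98626 to 99483) with a fold of 6.44. HSP82 encodes Hsp90 and YAR1 a ribosome assembly protein, and the summit lay 585 bp from HSP82 and 274 bp from YAR1. The thiamine list, which takes in vitamin B6 genes, had 1 of 5, SNO1-SNZ1 (2.28), a pair of vitamin B6 genes, and carnitine shuttle genes had 1 of 2, CRC1-RAS1. The 7 listed galactose genes flanked 0 members. Among their gaps, GAL10-GAL1 is crossed by an annotated antisense RNA gene. Of the 165 hit gaps 119 had no gene of any list at either side, and their median fold was 2.16.

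Sir2 summits lay in 6 divergent gaps, with 7 summits in all. The strongest was at the expressed mating-type locus, between MATALPHA2 and MATALPHA1 (III, 200179 to 200441), with a fold of 7.63 under a peak of 2620 bp that covered both genes' starts. The mating loci share sequence, so reads of one can be placed at another. Whether that happened here was not tested. The gap between MET5, a sulfite reductase gene, and IML1, a gene of nutrient signalling (X, 683286 to 684566), had a Sir2 fold of 4.02, with the summit 543 bp from MET5 and 739 bp from IML1. CRC1-RAS1 had 2.95 and PPH22-YDL186W had 2.58. ADE8-SIZ1, between a purine synthesis gene and a SUMO ligase gene, had 2.07. The 7420 bp gap YGR038C-B-YGR039W held 2 Sir2 summits with folds of 2.25 each, more than 2 kb from either gene.

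Both deacetylases had a summit in 2 divergent gaps. Over all 1329 divergent gaps Sir2 had a summit in 6 (0.451%), and whether the lists share gaps was not tested. In PPH22-YDL186W the Hst1 and Sir2 summits were 8 bp apart, and the Sir2 peak of 238 bp lay wholly within the Hst1 peak. In CRC1-RAS1 (XV, 514279 to 515243), between the mitochondrial carnitine carrier gene and a small GTPase gene, the folds were 2.38 for Hst1 and 2.95 for Sir2. The Hst1 summit lay 65 bp from CRC1, and the summits were 222 bp apart in peaks that shared 229 bp. In the other 163 gaps with an Hst1 summit Sir2 had none, and in 4 of the 1164 gaps without an Hst1 summit it had one.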

How the data were processed

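Peak lists of 3 IPs were used, 1 each for Hst1-HA, Sir2-HA and the mock IP. Per the submitters' processing notes, the authors used BWA and MACS2 on sacCer3; no source used here gives versions, cutoffs, the control library of each call or how the 2 technical replicates per IP named in the design text were combined. For every peak the deposited lists give the summit fold as a ratio, the −log10 p, the −log10 q, and a score that is the whole part of 10 times the −log10 q.

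Genes came from a RefSeq table of R64, the assembly behind sacCer3, with 6002 nuclear protein-coding genes. Since 96.4% of the gene models have a length that is a multiple of 3, starts are coding starts. Each chromosome was taken to end at its last annotated base or peak base. Gaps, summits (1-based) and intervals were computed with Python 3.11.15, pandas 2.3.3, NumPy 2.4.6 and SciPy 1.17.1, and the gap and summit code was tested on simulated data. Of 15 gene lists, all symbols matched. Gaps were named by rules on fold, length, Sir2 summits and gene lists; other gaps were named after their values were seen. The members, lists and rules were chosen with earlier results of these data known.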

Additional observations from a re-analysis of the deposited data

How the results depend on the processing

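With 1 list per IP leaving out a replicate was not possible. No paired analysis was possible because each group had 1 sample. A value was taken as moved when it left the interval of the reported one. Of 186 recomputed values, 148 did not move and 38 did.

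Raising the peak threshold lowered most shares. At a −log10 q of at least 10, Hst1 summits lay in 7.83% of divergent, 4.90% of tandem and 0.367% of convergent gaps, at 0.138 per kb of divergent gap with a median fold of 2.73. In the strongest 50% of the list the shares were 6.47%, 4.53% and 0.294%, the density 0.113 per kb, the median fold 3.26, the distance to the nearer start 284 bp, and the median length of gaps without a summit 453 bp. With the Hst1 list cut to the length of the Sir2 list, the shares were 3.16%, 1.94% and 0.0735%, the density 0.0550 per kb, the median fold 5.27, the distance 252 bp, the share in the central zone of the gap 42.9%, and the lengths 738 bp with and 463 bp without a summit. With any overlap counted, tandem gaps had 9.67%, and among gaps up to 500 bp the shares were 4.92% of divergent and 6.08% of tandem gaps. With noncoding genes allowed, tandem gaps had 8.99% and convergent gaps 1.89%. With gaps of at least 200 bp, those without a summit had a median of 460.5 bp.

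In all of these settings, and with 10 or 50 kb from the ends, gaps widened by 50 bp, peaks merged within 500 bp or mock IP peaks removed, the divergent share stayed above the tandem share, and the middle sporulation share stayed at 50% to 75%. Over all lengths the divergent and tandem intervals overlapped in the strongest 50% (5.21 to 7.93 and 3.75 to 5.43) and with the list cut (2.29 to 4.25 and 1.44 to 2.57). Above 1000 bp the divergent share also stayed above the tandem one in each setting. The intervals overlapped in the strongest 50% (21.2% and 13.6%), with the −log10 q limit of 10 (28.1% and 15.6%) and with the list cut (6.85% and 3.25%). Keeping gaps with a pseudogene was added after the data were seen and moved nothing. The planned search for sequence motifs was not run, as no sequence was used here.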

Other observations

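Among the divergent gaps with an Hst1 fold of 4 or more, 12 of 32 (37.5%, CI 21.1 to 56.3) were flanked by a gene whose symbol is its systematic name. With a fold under 4 it was 25 of 133 gaps (18.8%, CI 12.5 to 26.5), and without an Hst1 summit 220 of 1164 (18.9%, CI 16.7 to 21.3). The 12 strong gaps each had 1 such gene, and in 9 of them the summit was nearer to it than to the named partner (medians 154.5 and 265 bp). With a fold under 4, it was nearer to the unnamed gene in 12 of the 21 gaps with 1 such gene (medians 433 and 496 bp). The 12 strong gaps include IWR1-YDL114W (6.71), SCS7-YMR272W-B (6.25), GYP6-YJL043W (5.93), with the summit 50 bp from YJL043W, and ZRC1-YMR244W (5.71), with the summit 21 bp from YMR244W. This split was chosen after the values were seen, and no test was made.

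The interior divergent gaps left out for a noncoding gene or pseudogene were hit in 33 of 106 cases (31.1%, CI 22.5 to 40.9), and their median length was 1300.5 bp. Hst1 peaks reached into 21 members with the summit 12 to 638 bp beyond the gap, and in 18 of them it lay inside a flanking gene.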
